A study of Bos taurus with 8 samples.

Results

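The genes of cholesterol and fatty acid synthesis were followed in bovine granulosa cells collected in summer and in winter. The set holds 31 genes chosen by symbol: 18 enzymes of the sterol pathway, 5 genes of its transcriptional control and 8 enzymes that make, desaturate or elongate fatty acids. All 31 were found among the 26804 genes of the deposited table. The cells came from dry multiparous beef cows, labelled as Angus and described in the paper as a *Bos taurus* crossbreed, that stayed in 1 outdoor group and were treated in both seasons with the same 5-day CIDR (intravaginal progesterone) and FSH protocol before ovum pick-up (OPU), the needle aspiration of follicles. Summer cells were collected in August and winter cells in the coldest part of the year, which the labels and the paper place in different months. Polyadenylated RNA pooled from 2 cows made 1 library, and the table holds summer replicates 1, 2, 3 and 5 and winter replicates 1, 3, 4 and 5. OPU was done once per season, which means that season and collection session cannot be told apart, and the granulosa cells were pelleted from OPU fluid without a sorting step that the methods name.

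Cholesterol is built from acetyl-CoA by way of mevalonate, isoprenoid units, squalene and lanosterol, and fatty acids are built from the same acetyl-CoA by way of malonyl-CoA. Most genes of both pathways are targets of the sterol regulatory element-binding proteins (SREBPs), membrane-bound transcription factors that SCAP escorts from the endoplasmic reticulum to the Golgi for activation when sterols are low, and that INSIG proteins hold back when sterols are plentiful. In the follicle, granulosa cells use cholesterol as the substrate of steroid hormones. In the mouse, the cumulus cells, the granulosa cells attached to the oocyte, are known to supply it with sterols. The cells measured here came from the upper part of the OPU fluid, above the settled cumulus-oocyte complexes.

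Values are given as scaled TPM: TPM (transcript abundance normalized for length and library) without the 13 protein-coding mitochondrial genes, rescaled to 1000000 per library and adjusted by a trimmed mean of M-values (TMM) factor. TPM are per transcript length, so levels of different genes can be set side by side. Seasons were compared with limma on log2(scaled TPM + 1) over 13046 expressed genes, with Benjamini-Hochberg adjustment over all of them. A gene passed at an adjusted p of at most 0.05 and was called at a 2-fold change in addition. Log2 fold changes are summer minus winter. The p-values measure the spread between these libraries, each of which pools cows. The paper gives read numbers only as an average over the libraries, and TPM keep no depth, so counting error could not be computed per library.

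The mitochondrial genes held 50.7% to 87.7% of TPM in summer and 85.1% to 92.0% in winter, with summer replicate 3 highest in its season. Marker genes of several cell types moved with season. The counts of markers below are of those that passed, where 11% of all tested genes passed as higher in summer and 10.2% as lower. Of 11 granulosa cell markers, 9 were higher in summer, with a summed level of 30258 to 80321 scaled TPM against 14807 to 20028 in winter. *INHA* made the largest part of these sums (means of 29371 and 10544). *CYP19A1* (log2 fold change 0.69, limma adjusted p = 0.0898) and *FOXL2*, which was lower (-0.75, adjusted p = 0.0992), did not pass. Of 10 leukocyte markers, 8 were lower, with sums of 22.7 to 82.6 in summer and 234 to 406 in winter. Of 5 red cell markers, only 3 were tested, and all 3 were lower. The sums of the 5 were 39.0 to 98.9 in summer and 566 to 42418 in winter, the highest in winter replicate 3. Of 7 fibroblast markers, 4 were lower and 1 higher (sums of 158 to 283 and 360 to 1109), and of 7 epithelial markers, 3 were lower and 1 higher (638 to 1501 and 1431 to 4199). The theca enzyme *CYP17A1* was listed at 0 in 3 summer and 3 winter libraries, theca sums (215 to 415 and 106 to 574) and endothelial sums (2.23 to 5.05 and 2.68 to 8.22) overlapped, and the sums of 6 oocyte markers were 7.88 to 11.6 and 0 to 1.49. The oocyte markers that were tested entered through their summer values alone, so a count of those that passed is not given. In bulk RNA, fewer cells of a type and less RNA per cell cannot be told apart. The part of these cell types in the results below was not tested.

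Among the 31 genes, more were higher in summer than lower. By group, 9 of 18 sterol enzymes, 4 of 5 control genes and 4 of 8 fatty acid enzymes passed as higher. Of the 31 genes, 17 passed the adjusted p as higher and 1, *MVD*, as lower, where 11% of all tested genes passed as higher and 10.2% as lower. A 2-fold increase was called for 7 (6.14% of all tested genes), *SCD*, *MSMO1*, *SQLE*, *EBP*, *CYP51A1*, *INSIG1* and *ELOVL6*. By limma, no 2-fold decrease was called (6.67% of all tested genes), and 2 genes were lower at an unadjusted p under 0.05. Every summer library lay above every winter library for 12 of the 31 genes (13% of all tested genes) and below for 3 (11.3%). The median log2 fold change was 0.61 over the 31 genes and 0.03 over all tested genes. All 31 genes were above the expression threshold in all 8 libraries, so none entered through a single season. Summed over the 31 genes, the level was 2439.8 to 3534 scaled TPM in summer and 1484 to 1869.8 in winter.

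**Figure D1:**
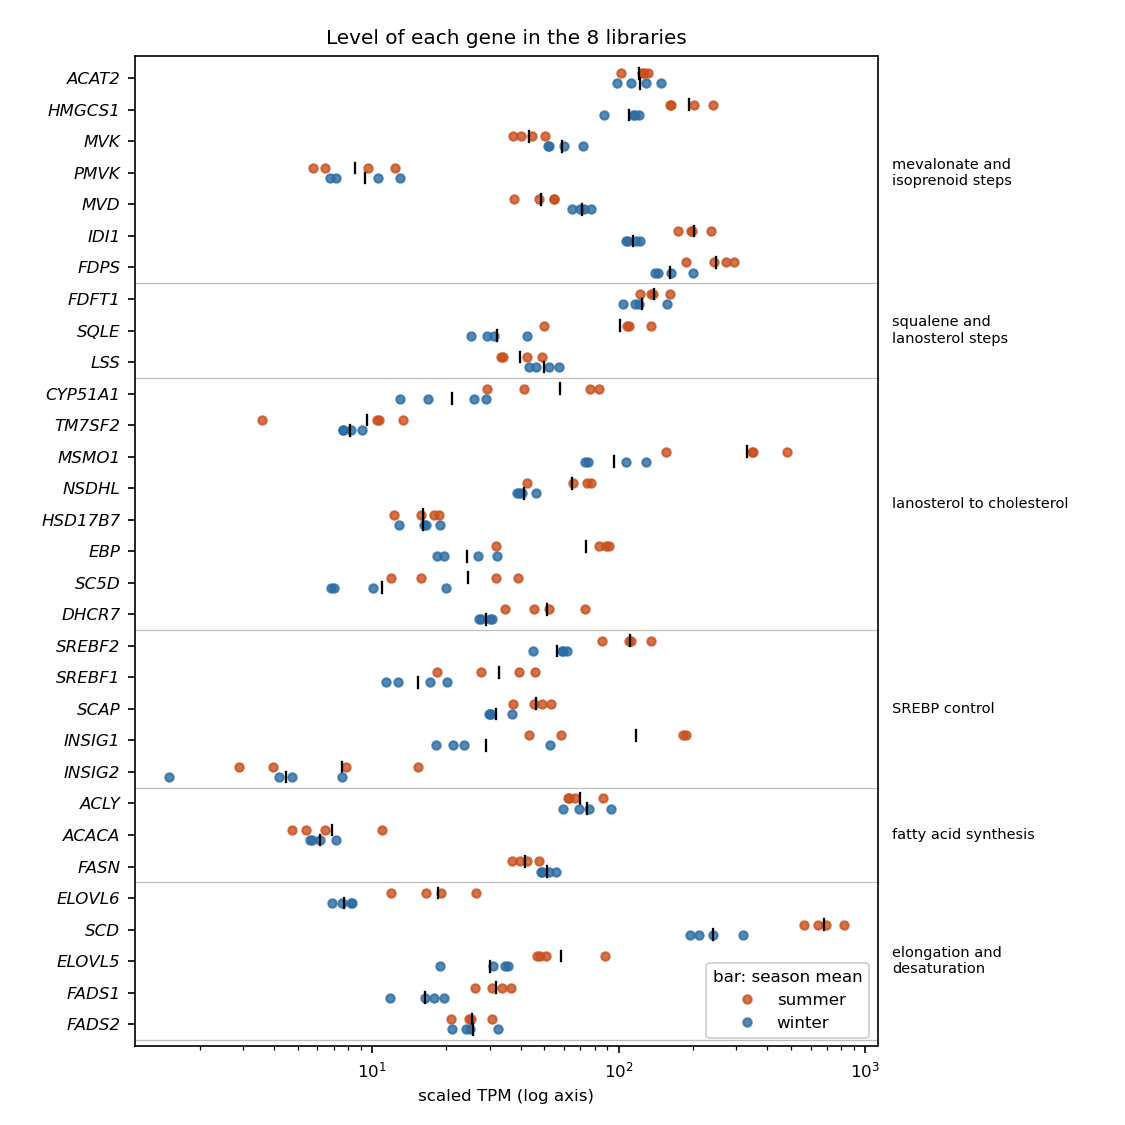
Level of each of the 31 genes (scaled TPM, log axis) in the 4 summer and 4 winter libraries, ordered by pathway step, with a bar at each season's mean. *SCD* is the most abundant gene of the set in both seasons, and its summer libraries (566 to 817) lie apart from its winter libraries (194 to 319).

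The first steps of the sterol pathway split by gene. *HMGCS1*, the synthase that condenses acetoacetyl-CoA and acetyl-CoA to HMG-CoA (ENSBTAG00000011839), had 241, 202, 163 and 161 scaled TPM for summer replicates 1, 2, 3 and 5, compared with 114, 121, 87.5 and 117 in winter replicates 1, 3, 4 and 5. The seasons did not overlap, and the log2 fold change was 0.79 (SE 0.17, limma adjusted p = 0.00896). *IDI1*, the isomerase that interconverts the isoprenoid building blocks, had 238, 199, 174 and 196 scaled TPM in summer and 107, 122, 109 and 118 in winter. This was the tightest difference of the early steps, at a log2 fold change of 0.81 (SE 0.13, adjusted p = 0.00279). *FDPS*, which joins those blocks to farnesyl diphosphate, was 249 ± 46.2 scaled TPM in summer against 162 ± 27.8 in winter (both SD, n = 4, log2 fold change 0.61, adjusted p = 0.0286). Its lowest summer library, replicate 3 at 187, lay below the highest winter library, replicate 3 at 201, and it no longer passed once replicate 1, 2 or 5 of summer or 1, 4 or 5 of winter was dropped.

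Neither the kinases nor the decarboxylase between mevalonate and the isoprenoid units passed as higher. *MVD* (ENSBTAG00000012059), the decarboxylase that ends the mevalonate steps, had 54.6, 54.5, 37.5 and 47.5 scaled TPM for summer replicates 1, 2, 3 and 5, compared with 64.7, 69.7, 76.9 and 72.2 in winter replicates 1, 3, 4 and 5. Every summer library lay below every winter library, with a log2 fold change of -0.55 (SE 0.15, limma adjusted p = 0.0297). It no longer passed under 8 of the 21 alternatives, among them the omission of summer replicate 5 or of winter replicate 3, 4 or 5, and the sign turned on the deposited TPM, with 0.88 for *MVD* beside a median of 0.89 for all tested genes. *MVK*, mevalonate kinase, was also lower in every summer library (37.3 to 50.4) than in any winter library (51.9 to 71.9), but its log2 fold change of -0.44 had an adjusted p of 0.0767. *PMVK*, the next kinase, was low in both seasons (8.54 ± 3.04 and 9.35 ± 2.95, SD, n = 4), with overlapping libraries. *ACAT2*, the cytosolic thiolase that makes acetoacetyl-CoA, stood at 121 ± 12.8 scaled TPM in summer against 122 ± 21.7 in winter (both SD, n = 4), a difference well within the spread (standard error of the log2 fold change 0.15).

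At the squalene steps a single enzyme rose. *SQLE*, squalene epoxidase (ENSBTAG00000005498), which catalyses a rate-limiting oxygenation, had 135, 111, 49.6 and 108 scaled TPM in summer and 31.3, 25.1, 29.1 and 42.4 in winter. Summer replicate 3 was the lowest of its season and still above every winter library (log2 fold change of 1.56 with SE 0.29, limma adjusted p = 0.00529). *FDFT1*, squalene synthase, which acts just before it, was 139 ± 16.2 against 124 ± 22.8 scaled TPM (both SD, n = 4), with overlapping libraries (log2 fold change 0.17, adjusted p = 0.466). *LSS*, lanosterol synthase, which acts just after it, was 39.7 ± 7.40 against 49.7 ± 6.14 scaled TPM (both SD, n = 4, log2 fold change -0.33, adjusted p = 0.194).

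Of the 8 enzymes that turn lanosterol into cholesterol, 5 were higher in summer and none was lower (by limma, 0 lower also at an unadjusted p under 0.05). Over all tested genes, 11% passed as higher and 10.2% as lower. *MSMO1*, the methylsterol monooxygenase that starts the removal of the methyl groups at carbon 4 (ENSBTAG00000003068), had the widest difference among the enzymes, with 480.3, 346, 155 and 349 scaled TPM for summer replicates 1, 2, 3 and 5, compared with 107, 74.9, 72.9 and 129 in winter replicates 1, 3, 4 and 5. The seasons did not overlap (log2 fold change of 1.71 with SE 0.32, limma adjusted p = 0.00524). *EBP*, the sterol isomerase, had 83.4, 88.6, 31.95 and 91.2 scaled TPM in summer and 27.0, 18.3, 19.6 and 32.1 in winter. Summer replicate 3 fell within the winter range, and the other summer libraries were far above it (log2 fold change of 1.49 with SE 0.33, adjusted p = 0.0109). *CYP51A1*, the cytochrome P450 that demethylates lanosterol, had 83.1, 76.5, 41.5 and 29.1 scaled TPM in summer and 28.9, 16.9, 12.98 and 25.9 in winter, so that summer replicate 5 and winter replicate 1 nearly touched (log2 fold change of 1.34 with SE 0.35, adjusted p = 0.0230). The gene did not pass when summer replicate 1, summer replicate 2 or winter replicate 3 was left out.

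*DHCR7*, the reductase of the last step, passed at a log2 fold change of 0.76 (51.4 ± 16.2 against 28.9 ± 1.78 scaled TPM, SD, n = 4, limma adjusted p = 0.0281), but not with summer replicate 1, 2 or 5 or winter replicate 1, 4 or 5 removed. *NSDHL*, the dehydrogenase that acts after *MSMO1*, passed at 0.61 (adjusted p = 0.0462), but not under 11 of the 21 alternatives, among them the omission of any single library other than summer replicate 3. *SC5D*, the desaturase before *DHCR7*, had the size of a called gene but a wide spread, with 11.9 to 38.9 scaled TPM in summer and 6.84 to 20.0 in winter (log2 fold change of 1.07 with SE 0.41, adjusted p = 0.0901). *TM7SF2*, a sterol reductase, and *HSD17B7*, a ketosteroid reductase, overlapped between seasons, at 9.51 ± 4.17 and 8.14 ± 0.708 for the first and 16.1 ± 2.84 and 16.1 ± 2.47 scaled TPM (SD, n = 4) for the second.

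**Figure D2:**
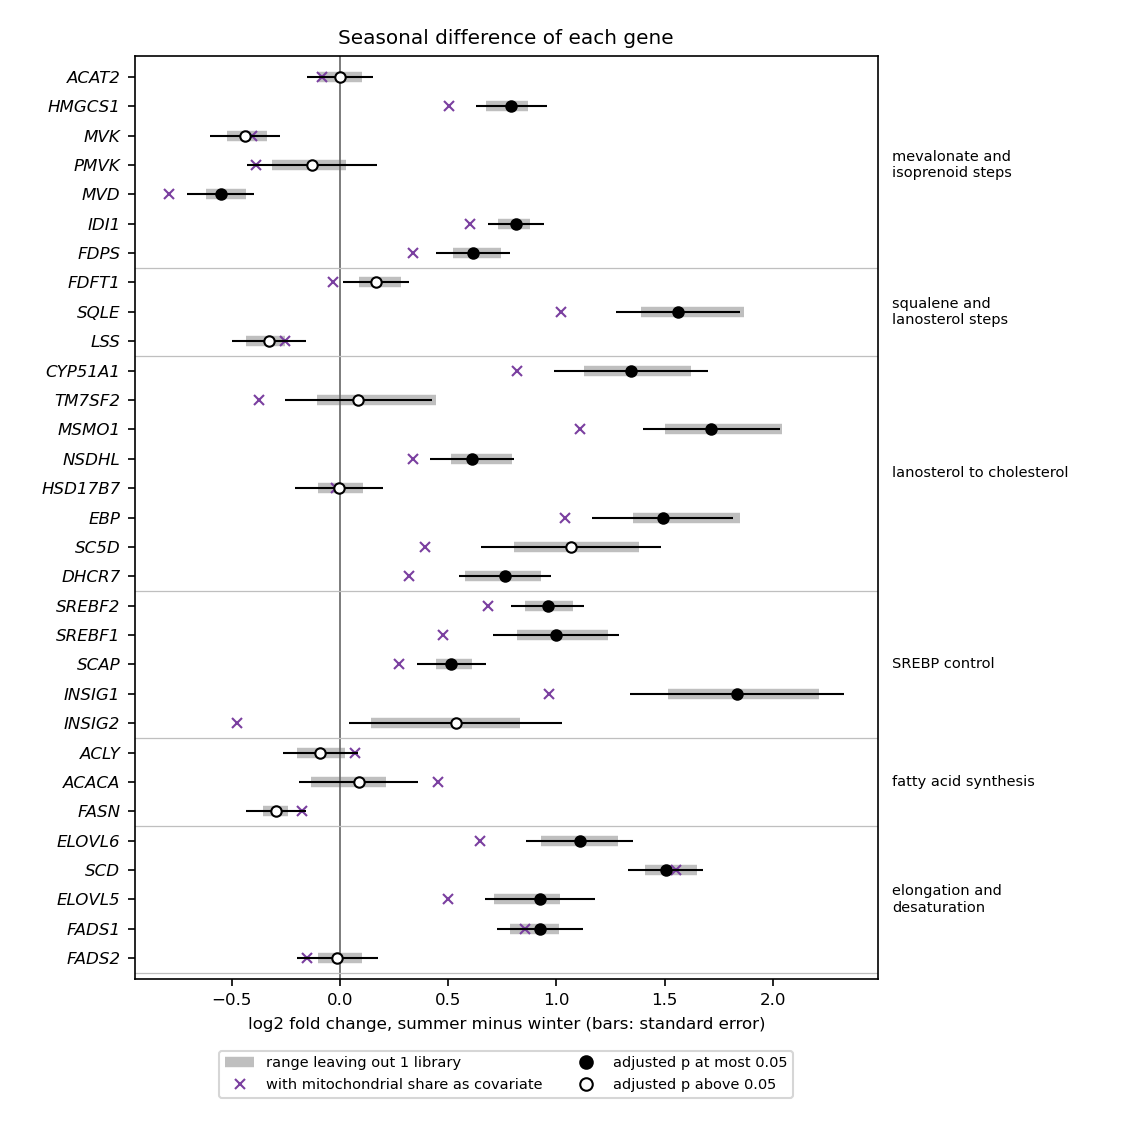
Log2 fold change of each gene (summer minus winter) with its standard error, filled where the adjusted p was at most 0.05. Grey bars span the values with 1 library left out, and crosses mark the value after adding the mitochondrial share as a covariate. The grey bar of *SCD* spans 1.41 to 1.65.

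Of the 5 control genes, 4 passed as higher in summer, where 11% of all tested genes did. *SREBF2*, which encodes the SREBP of cholesterol synthesis (ENSBTAG00000014265), had 135, 112, 85.3 and 111 scaled TPM in summer and 58.7, 59.4, 44.9 and 61.9 in winter. Its seasons did not overlap, and the fold change stayed just under the 2-fold threshold (log2 fold change of 0.96 with SE 0.17, limma adjusted p = 0.00426). *SREBF1*, whose products drive fatty acid genes, was less abundant, with 45.7, 39.3, 18.3 and 27.7 scaled TPM in summer and 20.1, 12.7, 11.4 and 17.2 in winter. Summer replicate 3 overlapped with the winter libraries (log2 fold change of 0.998 with SE 0.29, adjusted p = 0.0337). Omitting summer replicate 1, 2 or 5 or winter replicate 3, 4 or 5 left its adjusted p above the threshold. *SCAP*, the escort of both, was higher in every summer library by a smaller margin (46.1 ± 6.64 against 31.8 ± 3.35 scaled TPM, SD, n = 4, log2 fold change 0.52, adjusted p = 0.0419), and it passed in neither the quantile-normalized values nor the fits that lacked summer replicate 1, 2 or 5 or winter replicate 1, 4 or 5.

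The INSIG genes differed from each other. *INSIG1*, itself a target of the SREBPs that it restrains, had the largest fold change of all 31 genes, but 2 of its summer libraries made most of it: 187 and 183 scaled TPM in replicates 1 and 2, and 58.4 and 43.2 in replicates 3 and 5. In winter it had 52.8, 23.6, 18.1 and 21.3, so replicate 1 of winter lay above replicate 5 of summer (log2 fold change of 1.83 with SE 0.49, limma adjusted p = 0.0249). It no longer passed when replicate 1 or 2 of summer, or 3, 4 or 5 of winter, was left out. *INSIG2*, which is not induced in the same way, was low (2.88 to 15.4 scaled TPM in summer and 1.5 to 7.58 in winter), and the seasons overlapped (log2 fold change 0.53, adjusted p = 0.472).

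Among the 8 fatty acid enzymes of the set, the 4 that passed, all as higher, desaturate or elongate fatty acids. The share that passed as higher over all tested genes was 11%. *FADS2*, also a desaturase, did not pass. None of the 3 genes that make palmitate passed in either direction by limma (0 of 3 also at an unadjusted p under 0.05). *ACLY*, which releases cytosolic acetyl-CoA from citrate, was 69.7 ± 11.5 scaled TPM in summer against 74.6 ± 14.3 in winter (both SD, n = 4). *ACACA*, the carboxylase that makes malonyl-CoA, was low at 6.90 ± 2.82 against 6.16 ± 0.687 (both SD, n = 4). *FASN*, fatty acid synthase (ENSBTAG00000015980), had 37.0, 42.7, 47.3 and 39.7 scaled TPM in summer and 48.2, 55.6, 48.8 and 52.1 in winter. Every summer library lay slightly below every winter library, but the log2 fold change of -0.29 did not pass (SE 0.14, adjusted p = 0.155).

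*SCD*, the desaturase that makes oleate from stearate (ENSBTAG00000055207), was the most abundant gene of the set, above 98.4% of tested genes in summer and 95.8% in winter. It had 645, 566, 691 and 817 scaled TPM for summer replicates 1, 2, 3 and 5, compared with 194, 319, 211 and 242 in winter replicates 1, 3, 4 and 5. The seasons were far apart, summer replicate 3 was not low here, and the log2 fold change of 1.504 had the smallest adjusted p of the set (SE 0.17, limma adjusted p = 0.000921). *ELOVL6*, which elongates palmitate to stearate, the substrate of *SCD*, had 26.3, 19.0, 11.98 and 16.5 scaled TPM in summer and 8.24, 6.89, 8.27 and 7.53 in winter (log2 fold change of 1.11 with SE 0.25, adjusted p = 0.0115). The winter libraries were within a narrow range, and each was below every summer library.

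The enzymes of polyunsaturated fatty acids differed by gene as well. *FADS1*, a front-end desaturase, was 31.7 ± 4.43 scaled TPM in summer against 16.4 ± 3.30 in winter (both SD, n = 4), without overlap (log2 fold change 0.92, limma adjusted p = 0.00978). *FADS2*, the desaturase of the first step of the same route, was 25.3 ± 3.99 against 25.6 ± 4.79 scaled TPM (both SD, n = 4, standard error of the log2 fold change 0.19). *ELOVL5*, the elongase between them, was higher in every summer library than in any winter library (46.8 to 88.1 against 18.9 to 35.7, log2 fold change 0.92, adjusted p = 0.0276), and summer replicate 1 stood above the others. It did not pass once summer replicate 1 or 2 or winter replicate 4 was removed.

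**Figure D3:**
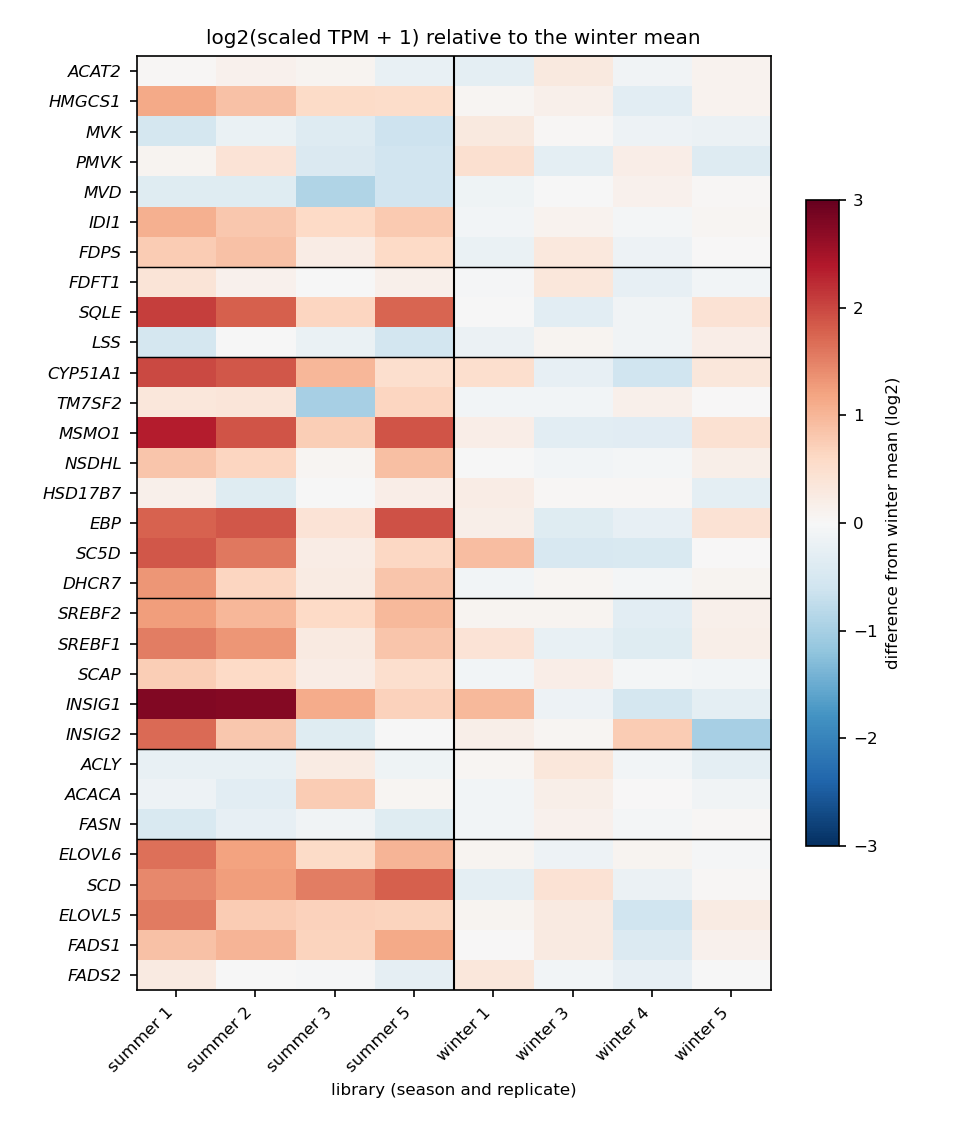
Difference of log2(scaled TPM + 1) from the winter mean for each gene (rows, in pathway order) and library (columns, summer left and winter right). Red marks values above the winter mean and blue those below, and summer replicate 3 is the palest summer column for *EBP*, *MSMO1* and *SQLE* but not for *SCD*.

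Pairs of genes of the set were compared within each library, where a factor per library cancels. These pairs were chosen after the values were seen, and their ratios are a description without a test. The ratio of *SQLE* to *FDFT1* was 0.837, 0.819, 0.405 and 0.788 in summer and 0.259, 0.1601, 0.281 and 0.365 in winter. It was higher in every summer library than in any winter library. The ratio of *SCD* to *FASN* was 13.3 to 20.6 in summer and 4.02 to 5.74 in winter, and that of *IDI1* to *MVD* was 3.65 to 4.64 and 1.42 to 1.75, both without overlap. *FADS1* to *FADS2* was 1.002 to 1.76 and 0.505 to 0.814. The ratios of *MSMO1* to *LSS* (3.64 to 14.2 and 1.43 to 2.47) and of *HMGCS1* to *ACAT2* (1.29 to 1.94 and 0.779 to 1.16) did not overlap either. In contrast, the ratio of *SREBF2* to *SREBF1* was 2.85 to 4.66 in summer and 2.92 to 4.68 in winter, nearly the same range, and that of *INSIG1* to *INSIG2* overlapped (10.8 to 23.4 and 2.39 to 14.2).

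**Figure D4:**
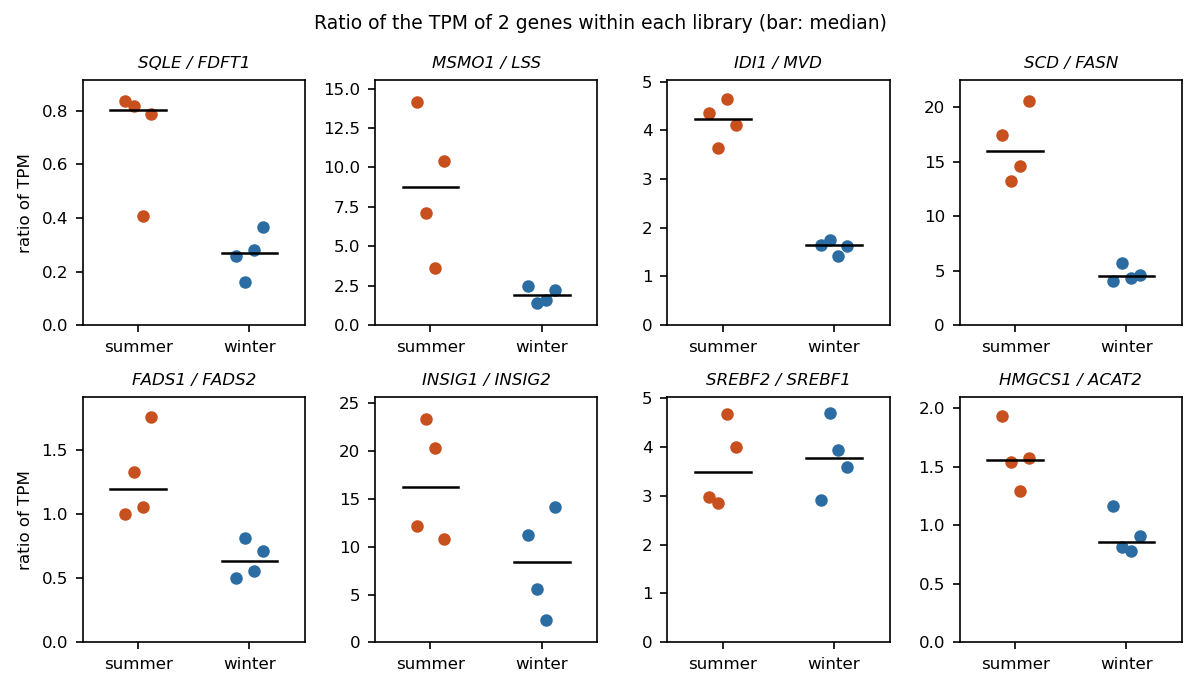
Ratio of the TPM of a pair of genes within each of the 4 summer and 4 winter libraries, with a bar at the median, on axes that start at 0. The ratio of *SCD* to *FASN* separates the seasons, and that of *SREBF2* to *SREBF1* does not.

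Other genes of the pathways were counted from lists chosen by function. Of 19 further sterol genes, 9 were higher and 1 lower in summer, with a median log2 fold change of 0.60. Over all tested genes, 11% passed as higher and 10.2% as lower. *ERLIN1*, a protein of the endoplasmic reticulum membrane (log2 fold change 1.06, limma adjusted p = 0.00633), and *POR*, the electron donor of cytochrome P450 enzymes and of squalene epoxidase (1.39, adjusted p = 0.00947), were among those higher in summer. The lower gene was *CYB5R3*, a cytochrome b5 reductase (-0.60, adjusted p = 0.0113).

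Of 34 further fatty acid genes, 33 were in the table and 28 were tested. Of these, 5 were higher and 6 lower, with a median log2 fold change of -0.02. The shares over all tested genes were 11% higher and 10.2% lower. Higher were the desaturase *SCD5* (0.77, limma adjusted p = 0.00813), the acyl-CoA synthetase *ACSL3* (1.58, adjusted p = 0.0125), and *HACD2* (1.13) and *TECR* (1.21), which complete each round of elongation. Lower were *ACSL5* (-2.55, adjusted p = 0.00109), another acyl-CoA synthetase, *ACSS2* (-1.06, adjusted p = 0.00813), which makes acetyl-CoA from acetate, *FADS3* (-1.33) and *HACD4* (-1.23). *ACSL5* had 2.40 to 6.01 scaled TPM in summer and 17.3 to 32.8 in winter, a range without overlap.

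The counts changed when single libraries were left out and when the mitochondrial share was added as a covariate. That share itself differed by season (mean 71.1% in summer and 88.8% in winter). In 8 libraries the covariate and season therefore cannot be fully told apart. Of the 17 genes higher in summer, summer replicate 1, with the smallest mitochondrial share of summer, held the highest summer value for 12. Summer replicate 3, with the largest share of summer, held the lowest for 12. The same count was not made over all tested genes, so this order of libraries may not be particular to the set. Without summer replicate 1 or 2, 9 genes passed as higher, without winter replicate 4, 10, and without winter replicate 5, 11. Over all tested genes the count that passed as higher also fell, from 1430 to 754, 896, 1249 and 966 in these fits. The number called as 2-fold higher was 4 without summer replicate 1 and 11 without summer replicate 3, where over all tested genes it went from 801 to 504 and 1002. With the mitochondrial share as a covariate, *SCD* alone still passed as higher, while 9 genes were higher at an unadjusted p under 0.05 and all 17 kept a positive log2 fold change (299 of 13046 genes passed in that fit, against 2767). *HMGCS1*, *IDI1*, *SQLE*, *MSMO1*, *EBP*, *SREBF2*, *ELOVL6* and *FADS1* fell short of the adjusted p under this covariate and under no other of the 21 alternatives, and *SCD* passed under all of them. The log2 fold change of *ELOVL6* went under the 2-fold threshold with TMM over all genes (0.82), with a pseudocount of 5 (0.85) and without summer replicate 1 (0.93). It was lowest with the mitochondrial share as a covariate (0.65). On the deposited TPM without rescaling, 29 genes passed as higher and 0 as lower by limma, with none lower at an unadjusted p under 0.05, but there 7960 of all 13046 tested genes passed as higher and 243 as lower.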

How the data were processed

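The deposited table holds TPM made by the authors. By the paper's account CLC Genomics Workbench did the trimming, bovine mapping and TMM normalization. The submitters' notes list bcl2fastq, Bowtie2 2.2.2, DESeq2 and the build ARS-UCD1.2. Each library sums to 1000000, so no TMM factor is left in the values. Strand handling was not given, and reads of close paralogs or overlapping genes cannot be separated. After removal of the 13 mitochondrial protein genes each library was rescaled to 1000000, and TMM factors were computed without count weights (30% of M and 5% of A trimmed). A gene was tested if its zFPKM exceeded -3 throughout the 4 libraries of a season. The limma package (3.58.1, in R 4.3.3) fitted log2(scaled TPM + 1) on season alone, with trended eBayes moderation. A call further required zFPKM over -3 in each library of the season with the higher mean. The script was tested on simulated data. Figures were drawn with matplotlib 3.10.9.

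The genes, lists and tests were chosen with earlier results of these data known, so no p is given for a list. Every gene of the set is named. Of the other pathway genes, at most 4 of smallest adjusted p per list and direction are. Some results that this rule selects are not reported here. The alternatives changed the scaling, pseudocount, filter, variance model, library weights, replicate block, mitochondrial covariate or libraries used. The fit without both replicate 3 libraries was added after seeing the data. A planned search for promoter motifs was not run, and no sequence was used here.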

Additional observations from a re-analysis of the deposited data

Results flagged for a closer look

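In each season the highest and lowest of the 4 libraries was compared with the others for the 31 genes by Dixon's test on scaled TPM, 62 groups in all, of which chance flags about 1 in 20. Those that stood apart were 4. *EBP* in summer replicate 3 was 31.95 against 83.4 to 91.2 in the other summer libraries. *SCAP* in winter replicate 3 was 36.9 against 29.9 to 30.5 in the other winter libraries. *INSIG1* in winter replicate 1 was 52.8 against 18.1 to 23.6. *ELOVL5* in summer replicate 1 was 88.1 against 46.8 to 50.6.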

How the results depend on the processing

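With 1 library left out, 9 to 18 genes passed as higher, 0 to 1 as lower and 4 to 11 were called higher, and the median log2 fold change was 0.56 to 0.83. On the deposited TPM, 29 passed as higher, 0 as lower and 27 were called higher, with a median of 1.91 (0.89 over all genes, of which 8203 passed), and the sign turned for *MVK* (0.96), *PMVK* (0.87), *MVD* (0.88), *LSS* (1.04), *HSD17B7* (1.11), *ACLY* (1.31), *FASN* (1.07) and *FADS2* (1.23). Without a TMM factor (median over all genes 0.28), 0 passed as lower and 15 were called higher, with a median of 0.91, and *PMVK* (0.13), *HSD17B7* (0.27), *ACLY* (0.20) and *FADS2* (0.27) turned. With TMM over all genes, *HSD17B7* (0.012) and *FADS2* (0.0051) turned. Under quantile normalization 2 passed as lower and *ACAT2* turned (-0.063), and without a trend 0 passed as lower. With library weights the median was 0.86, and *PMVK* (0.065), *HSD17B7* (0.017), *ACAT2* (-0.0038), *ACACA* (-0.0555) and *FADS2* (0.029) turned. With the mitochondrial share as a covariate, 1 passed as higher, 0 as lower and 1 was called, with a median of 0.34, and *FDFT1* (-0.033), *TM7SF2* (-0.37), *ACAT2* (-0.081), *INSIG2* (-0.47) and *ACLY* (0.068) turned. Without both replicate 3 libraries 0 passed as lower, the median was 0.85, and *HSD17B7* (0.015) and *ACACA* (-0.071) turned. With 1 library left out, the genes that turned were *PMVK* (-0.31 to 0.030), *HSD17B7* (-0.10 to 0.11), *ACAT2* (-0.097 to 0.10), *TM7SF2* (-0.10 to 0.44), *ACACA* (-0.13 to 0.21), *ACLY* (-0.20 to 0.024) and *FADS2* (-0.10 to 0.10). None of the genes that turned had passed in the fit reported except *MVD*. The causes were not tested.

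The reported fit did not pair libraries by replicate number, although the paper sampled the same cows in both seasons. Deviations from the season means correlated at 0.040, 0.162 and 0.112 for the shared numbers 1, 3 and 5. For unequal numbers the highest value was 0.047, between winter replicate 1 and summer replicate 2. These values do not settle whether equal numbers hold the same cows. With the replicate number as a block, 17 passed as higher, 1 as lower, 7 were called higher and 0 lower, the median was 0.61, and *HSD17B7* (0.0065) and *ACAT2* (-0.0053) turned. Depth per library is unknown and sets an unmeasured limit on the low genes, such as *INSIG2*, *ACACA*, *PMVK* and *TM7SF2*.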

Other observations

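Grouped by where their products are known to sit, 14 of the 21 genes of membrane proteins were higher in summer and none was lower by limma (0 lower also at an unadjusted p under 0.05). Their median log2 fold change was 0.92. Of the 10 genes of soluble or peroxisomal enzymes, *HMGCS1*, *IDI1* and *FDPS* were higher and *MVD* lower, with a median of -0.04. Over all tested genes 11% passed as higher and 10.2% as lower, and the median was 0.03. This grouping was chosen after the values were seen and was not tested. Membrane genes that did not pass were *FDFT1*, *LSS*, *TM7SF2*, *HSD17B7*, *SC5D*, *INSIG2* and *FADS2*.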
